A study of Homo sapiens with 12 samples.

Results

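Ferroptosis is a form of cell death driven by iron and by peroxidation of membrane lipids. Cystine taken up by the cell feeds glutathione synthesis, glutathione lets GPX4 reduce lipid peroxides, and the iron that drives peroxidation is imported through the transferrin receptor and stored in ferritin. The transcription factor NRF2, held down by KEAP1, switches on many genes of this defence. The genes examined were 10 of the 20056 protein-coding genes in the RefSeq annotation of GRCh38.p14, chosen by name. They are SLC7A11 and SLC3A2 (cystine import), GPX4 and AIFM2 (lipid peroxide repair), ACSL4 (supply of oxidisable lipids), FTH1 and FTL (iron storage), TFRC (iron uptake), and NFE2L2 and KEAP1 (the NRF2 axis). Every peak that overlapped the span of 1 of these genes by at least 1 bp, on either strand, was taken. This gave 37 of the 28047 peaks in the sh-NAT10 list and 30 of the 34365 peaks in the sh-NC list.

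The peaks mark RNA enriched with an antibody against N4-acetylcytidine (ac4C), a cytidine modification made by the acetyltransferase NAT10. RBE cells, a human intrahepatic cholangiocarcinoma line, carried a short hairpin RNA against NAT10 (sh-NAT10) or a control hairpin (sh-NC). The sh-NAT10 hairpin was delivered by lentivirus, and resistant colonies were expanded under puromycin as stable lines. The labels call the molecule polyA RNA, while the protocol starts from total RNA. Fragmented RNA was immunoprecipitated and sequenced beside its input, in 3 replicates for each of 4 groups, 12 libraries in all, but the values analysed here are 1 deposited peak list for each arm. Nothing in them measures the spread between replicates, so no difference between the arms was tested and no p-value is given. The depth behind each list is unknown, and less ac4C, less RNA and fewer reads cannot be told apart where a peak is missing.

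Each peak carries a deposited score of unstated scale, with most values above a lower edge at 10. Scores are the authors' own and are used only to describe, rank and filter peaks within a list. The main peaks are given with the percentage of peaks in their own list that score lower. Where a threshold of 20 is used it is the same number in both lists, and whether the scale is the same in both is unknown. A peak is called shared when it overlaps a peak of the other list by at least 1 bp on the same strand. Biliary markers carried peaks, with 10 sh-NAT10 and 11 sh-NC peaks on KRT7, 4 and 5 on KRT19, 6 and 5 on SOX9, and 3 and 3 on KRT18, while EPCAM had 0 in both. ALB, a hepatocyte marker, had 0 sh-NAT10 peaks and 1 sh-NC peak, APOA1 and TTR had 0 in both, and the fibroblast marker PDGFRB had 0 in both, with 1 and 0 on COL1A1. The immune markers PTPRC (1 and 1) and CD68 (5 and 5) had equal numbers. NAT10 had 5 peaks in both lists, which say nothing about its RNA or protein level.

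Most of the 10 genes carried ac4C peaks in both arms. A sh-NAT10 peak was present on 8 of the 10 genes, where 42.0% of all protein-coding genes had one, and a sh-NC peak on 9 of the 10, where 47.1% had one. ACSL4 was the 1 gene with a sh-NC peak and no sh-NAT10 peak, out of 9 with a sh-NC peak, beside 26.3% of all protein-coding genes with a sh-NC peak. Both lists had a peak on 8 of the 10 genes, beside 34.7%. SLC7A11 had no peak in either list, and 0 of the 8 genes with a sh-NAT10 peak lacked a sh-NC peak, beside 17.4% over all protein-coding genes.

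SLC3A2, AIFM2, FTH1, TFRC and KEAP1 had more peaks in the sh-NAT10 list than in the sh-NC list, which is 5 of the 9 genes with a peak, beside 33.3% of the 10915 protein-coding genes with a peak. ACSL4, FTL and NFE2L2 had fewer, 3 of 9 beside 46.1%, and GPX4 had 1 peak in both lists, 1 of 9 beside 20.6%. The median difference, sh-NAT10 minus sh-NC, was 1 peak over the 9 genes and 0 over all protein-coding genes with a peak. The sh-NC list is the longer of the lists, and these shares move with list length. With both lists cut by score to the length of the shorter, 6 of the 9 genes had more sh-NAT10 peaks, beside 44.8% of protein-coding genes with a peak, and 2 had fewer, beside 36.8%, with NFE2L2 now among those with more. The order also depended on peaks of low score. Counting only peaks with a score of 20 or more, 1 of 7 genes (FTH1) had more sh-NAT10 peaks, beside 40.8% of protein-coding genes with such a peak, and 3 (AIFM2, FTL and TFRC) had fewer, beside 38.3%. Those 3 had such a peak in the sh-NC list only, 3 of 7 beside 47.2%. The totals were then 9 sh-NAT10 and 10 sh-NC peaks.

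**Figure D1:**
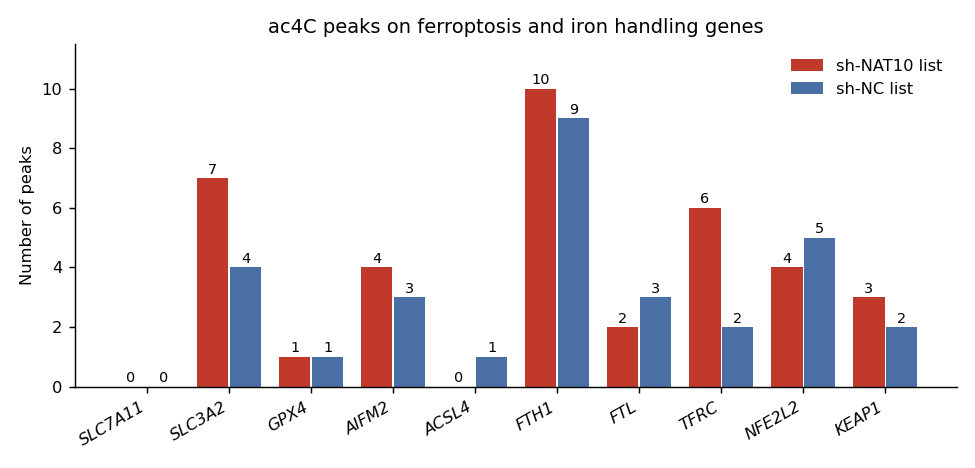
Number of deposited ac4C peaks (vertical axis) overlapping the span of each of the 10 genes, with the sh-NAT10 list in red and the sh-NC list in blue. FTH1 has the most peaks in both lists (10 and 9), TFRC differs most (6 and 2), and SLC7A11 has 0 in both.

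The cystine importer is a pair of proteins, the transporter SLC7A11 (xCT) and the heavy chain SLC3A2 (CD98hc), which carries it to the membrane and also serves other amino acid transporters. SLC7A11 (chromosome 4, 138164097 to 138242349, hg38) overlapped no peak in either list. The nearest sh-NAT10 peak lay 319205 bp away. The nearest sh-NC peak lay 4285 bp away, a plus-strand span of 54041 bp that overlapped LINC00616 and SLC7A11-AS1. The lists thus give no ac4C value for SLC7A11 in either arm, and how much of its RNA was present is not in them.

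SLC3A2 (chromosome 11, 62856109 to 62888860) had 7 sh-NAT10 peaks and 4 sh-NC peaks, all on the plus strand, the strand of the gene. Its highest peak was the same interval in both lists, 75 bp from 62885298 to 62885372. It scored 37.8 in the sh-NAT10 list, above 95.5% of that list, and 44.9 in the sh-NC list, above 97.6% of that list. The arms differed around it. In the sh-NAT10 list 5 peaks lay between 62888114 and 62888738, all with their centres in the last 685 bp of the gene, with scores of 19.5, 13.1, 11.0, 12.5 and 16.5 in order along the gene. In the sh-NC list that stretch held only the last of them, from 62888664 to 62888738, with a score of 10.9. The sh-NC list instead had 2 peaks just past the highest one, 50 bp wide at 62885523 with a score of 10.6 and 25 bp wide at 62885598 with a score of 12.5. A 25 bp sh-NAT10 peak with a score of 13.4 lay near the gene start, its centre 257 bp from it, and no sh-NC peak lay there. The difference of 3 peaks was larger than that of 93.6% of protein-coding genes with a peak, and 2.89% had a larger one.

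GPX4, the selenoenzyme that reduces lipid peroxides in membranes, carried the highest score of any peak on the 10 genes in the sh-NAT10 list. Its only peak was 155 bp from 1106397 to 1106551 on chromosome 19, with the same edges in both lists, and its centre lay at 89.0% of the 2786 bp span, 306 bp before the gene end. It scored 72.6 in the sh-NAT10 list, above 98.6% of that list, and 35.9 in the sh-NC list, above 96.4% of that list. No other peak lay on GPX4 in either arm.

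AIFM2 (FSP1), which repairs lipid radicals through coenzyme Q independently of GPX4, had 4 sh-NAT10 peaks and 3 sh-NC peaks on the minus strand of chromosome 10 (70112271 to 70132825). In both lists 1 peak had its downstream edge at 70120598, but it was 2810 bp wide in the sh-NAT10 list with a score of 19.7 and 567 bp wide in the sh-NC list with a score of 26.2. A 25 bp peak at 70115043 was in both lists, with a score of 14.8 in the sh-NAT10 list and 10.3 in the sh-NC list. Beside it the sh-NC list had a span of 1526 bp from 70115118 to 70116643 with a score of 16.3. It began at the base after an unshared sh-NAT10 peak from 70115093 to 70115117, which scored 11.0. The other unshared sh-NAT10 peak was 25 bp wide at 70124019 with a score of 10.9. Each peak is written as a single block, so spans of this width can include introns, and exons were not analysed here.

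ACSL4, which activates polyunsaturated fatty acids for membrane lipids and so supplies the substrate of peroxidation, had 0 sh-NAT10 peaks and 1 sh-NC peak. That peak was 150 bp from 109683404 to 109683553 on the minus strand of chromosome X, close to the middle of a span of 91923 bp, with a score of 19.3, above 86.7% of the sh-NC list. The nearest sh-NAT10 peak lay 375835 bp outside the gene. Over the whole sh-NC list, 45.5% of peaks overlapped a sh-NAT10 peak.

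**Figure D2:**
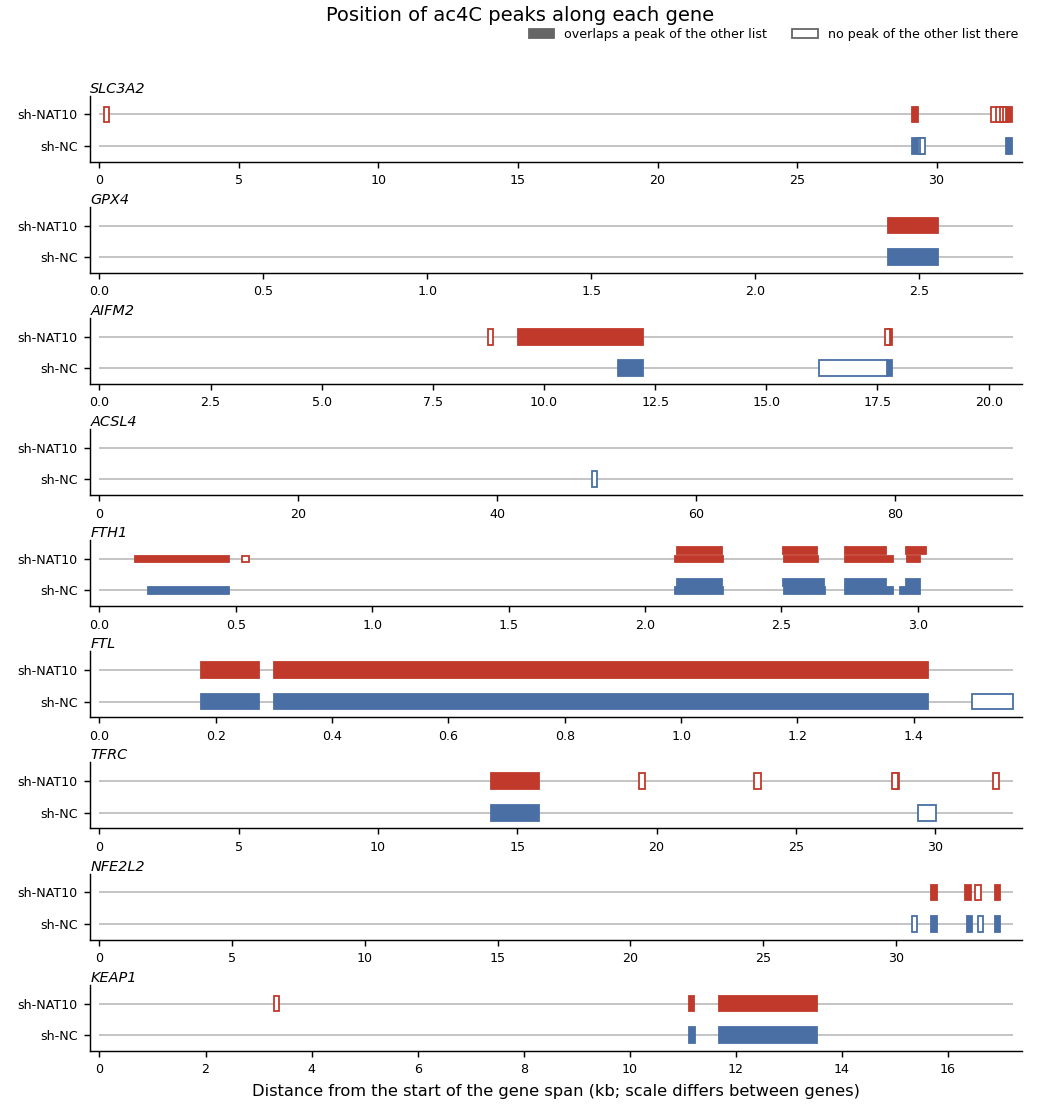
Position of each peak along the 9 genes that had any, as distance in kb from the start of the gene span, with the sh-NAT10 list above the sh-NC list. Filled bars overlap a peak of the other list and open bars do not; peaks too narrow to see are drawn at a fixed small width, and for FTH1 the plus-strand peaks are drawn just above the minus-strand ones. The open sh-NAT10 bars cluster at the end of SLC3A2 and are spread over the downstream part of TFRC.

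The ferritin subunits, heavy chain FTH1 with ferroxidase activity and light chain FTL, carried peaks across much of both genes. FTH1 (chromosome 11, 61964285 to 61967634) had 10 sh-NAT10 peaks and 9 sh-NC peaks in only 3350 bp, the most of the 10 genes. Of these, 9 sh-NAT10 and all 9 sh-NC peaks also overlapped BEST1 or LOC399900, which left 1 sh-NAT10 peak and 0 sh-NC peaks in FTH1 alone. Shared peaks numbered 9 in the sh-NAT10 list and 9 in the sh-NC list, and 4 had the same edges in both lists. The unshared sh-NAT10 peak was 25 bp wide at 61967086 with a score of 11.0. Near the gene start, where LOC399900 also lies, a shared minus-strand peak from 61967161 was 345 bp wide in the sh-NAT10 list with a score of 16.7 and 295 bp wide in the sh-NC list with a score of 18.1. FTH1 has many processed copies in the genome, as FTL does, so reads can be split between copies and these counts are uncertain.

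The peaks on FTH1 lay on both strands, and this was seen on no other gene of the set. The minus strand held 6 sh-NAT10 and 5 sh-NC peaks, the plus strand 4 and 4. In both lists every plus-strand peak overlapped a minus-strand peak, giving 4 such pairs in each, and the starts within a pair were 3 bp apart in 2 sh-NAT10 and 3 sh-NC pairs, with the remaining 3 pairs offset by a further step of 25 bp. All 8 plus-strand peaks also lay in BEST1, a chloride channel gene (61949821 to 61965515) that overlaps the end of FTH1. The plus-strand peak with the highest score, from 61965353 to 61965515, ended in both lists at the last base of BEST1, while its minus-strand partner ran on to 61965524. From these lists, reads of FTH1 and of BEST1 cannot be told apart at this place. The BEST1 end peak scored 64.3 in the sh-NAT10 list and 63.9 in the sh-NC list, and its minus-strand partner 20.6 and 23.1. The highest minus-strand peak scored 37.8 in the sh-NAT10 list (61965000 to 61965124) and 44.3 in the sh-NC list (61964975 to 61965124). The strand of FTH1 is not given in the annotation used here and was taken as the strand with most of its peaks. On that strand alone FTH1 kept 6 sh-NAT10 and 5 sh-NC peaks.

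FTL (chromosome 19, 48965309 to 48966879) had 2 sh-NAT10 peaks and 3 sh-NC peaks on its own strand, plus. The widest, 1125 bp from 48965609 to 48966733, covered most of the gene with the same edges in both lists. It scored 16.6 in the sh-NAT10 list, above 77.3% of that list, and 44.8 in the sh-NC list, above 97.6% of that list. A 100 bp peak at 48965484, with its centre 224.5 bp from the gene start, was also in both lists, scoring 10.8 and 12.6. The sh-NC list had a further peak of 71 bp that ended at the last base of the gene, with a score of 12.6, and the sh-NAT10 list had none there.

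TFRC, the transferrin receptor that imports iron, had the largest excess of sh-NAT10 peaks among the 10 genes. On the minus strand of chromosome 3 (196049284 to 196082090) it had 6 sh-NAT10 peaks and 2 sh-NC peaks, and 97.1% of protein-coding genes with a peak had a smaller difference. The shared peak was a span of 1736 bp from 196066316 to 196068051 with the same edges in both lists. It scored 19.8 in the sh-NAT10 list, above 84.8% of that list, and 45.3 in the sh-NC list, above 97.7% of that list. The other 5 sh-NAT10 peaks lay downstream of it, from 59.4% to 98.1% of the span, with widths from 25 to 233 bp and scores from 11.9 to 17.5. None overlapped the other sh-NC peak, a span of 663 bp from 196052046 to 196052708 with a score of 18.9. All 6 sh-NAT10 peaks scored under 20, and the only TFRC peak above 20 was in the sh-NC list.

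NFE2L2 and KEAP1 each differed by 1 peak between the lists, in opposite directions. NFE2L2, which encodes NRF2, had 4 sh-NAT10 peaks and 5 sh-NC peaks, all on its own strand, minus, of chromosome 2 (177230303 to 177264727), and all with their centres from 89.2% to 98.3% of the span. A 125 bp peak from 177233227 to 177233351 was in both lists with the same edges and was the highest on the gene in both. It scored 23.4 in the sh-NAT10 list, above 89.0% of that list, and 39.7 in the sh-NC list, above 97.1% of that list. The pair nearest the gene end, 175 bp in the sh-NAT10 list and 150 bp in the sh-NC list, scored 19.6 and 13.0. At 177232026 both lists had a peak ending, 25 bp wide with a score of 10.5 in the sh-NAT10 list and 150 bp wide with a score of 11.6 in the sh-NC list. The unshared peaks were 1 in the sh-NAT10 list, at 177231577 with a score of 13.1, and 2 in the sh-NC list, at 177231527 and 177234002 with scores of 10.1 and 10.4. A further sh-NAT10 span of 6362 bp began 42 bp beyond the start of the gene on the same strand, outside the annotated span and so not counted, with a score of 12.0.

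KEAP1, the adaptor that marks NRF2 for degradation, had 3 sh-NAT10 peaks and 2 sh-NC peaks on the minus strand of chromosome 19 (10486125 to 10503356). A span of 1848 bp from 10489835 to 10491682 was in both lists with the same edges and a score far under 10, 0.413 in the sh-NAT10 list and 1.12 in the sh-NC list. A peak at 10492158 was 75 bp wide with a score of 12.0 in the sh-NAT10 list and 50 bp wide with a score of 10.4 in the sh-NC list. The sh-NAT10 list had a further 100 bp peak from 10499970 to 10500069, with its centre at 19.4% of the span and a score of 15.4. No KEAP1 peak reached 20 in either list.

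The peaks of highest score on these genes were common to both arms, and the peaks found in 1 arm only all scored under 20. Of the 37 sh-NAT10 peaks 22 were shared (59.5%, 95% Wilson interval 43.5 to 73.7), beside 55.6% of the whole list, and of the 30 sh-NC peaks 22 (73.3%, 55.6 to 85.8), beside 45.5%. The intervals cover counting error only and treat peaks as independent, which neighbouring peaks on a gene are not. FTH1 held 9 of the 22 shared peaks in each list, most of them in pairs on both strands inside BEST1. For peaks that overlap no other gene the shares were 46.4% in the sh-NAT10 list and 61.9% in the sh-NC list. In each list 13 peaks had the same edges in the other, 35.1% of the sh-NAT10 and 43.3% of the sh-NC peaks, where 20.0% and 16.3% of the whole lists did. All 9 sh-NAT10 and all 10 sh-NC peaks with a score of 20 or more were shared, beside 71.6% and 64.0% of such peaks in the whole lists. Such peaks made up 24.3% of the sh-NAT10 and 33.3% of the sh-NC peaks on these genes, beside 14.9% and 12.3% of the whole lists. Most of these sh-NAT10 peaks and some of these sh-NC peaks lay on FTH1 inside BEST1, where peaks on both strands overlap. These shares therefore depend much on that 1 place.

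The 15 sh-NAT10 peaks without a counterpart had a median width of 25 bp and scores from 10.9 to 19.5, with a median of 13.1. The 8 sh-NC peaks without a counterpart had a median width of 60.5 bp and scores from 10.1 to 19.3, with a median of 12.6. The narrowest width, 25 bp, accounted for 10 of the 37 sh-NAT10 peaks, beside 15.3% of the whole list, and for 3 of the 30 sh-NC peaks, beside 13.4%. Of those 10 peaks, 8 had no counterpart. Median widths on these genes were 100 bp in the sh-NAT10 list and 150 bp in the sh-NC list, and median scores were 15.4 and 16.7, beside 12.4 and 12.2 over the whole lists.

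**Figure D3:**
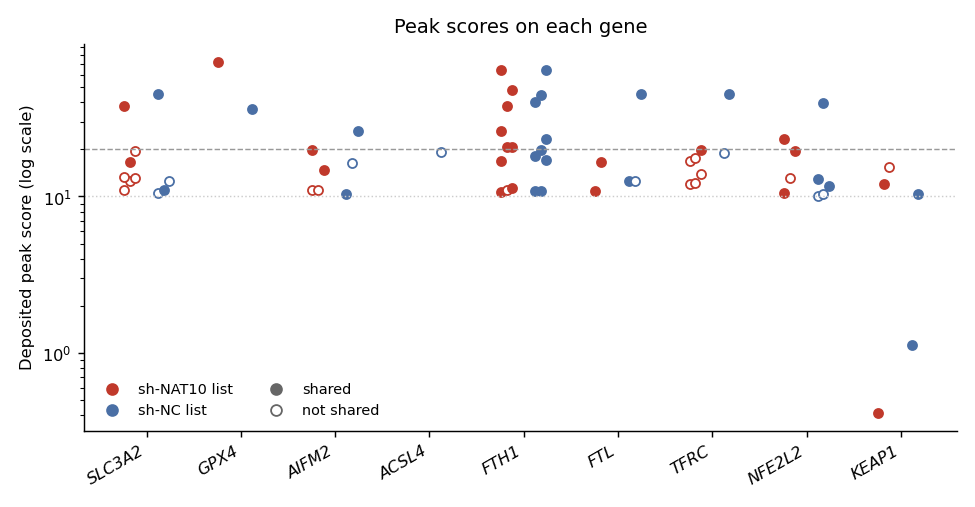
Deposited score of every peak on each gene (vertical axis, log scale), with sh-NAT10 peaks in red on the left and sh-NC peaks in blue on the right; filled points are shared and open points are not. The dashed line marks a score of 20 and the dotted line the lower edge of 10. All points above 20 are filled, and only the wide KEAP1 span lies below 10.

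Peaks lay mostly toward the downstream end of the genes, with median centres at 84.2% of the span in the sh-NAT10 list and 85.3% in the sh-NC list. The last 10% of the gene, by peak centre, held 10 of the 37 sh-NAT10 peaks (27.0%) and 8 of the 30 sh-NC peaks (26.7%). Over all peaks in exactly 1 protein-coding gene of known strand the shares were 20.2% and 27.2%, and the median centres 67.9% and 72.5%. The sets are not alike. The values for the 10 genes include the FTH1 peaks, on both strands, and almost all of those also reach another gene. The first 10% held 2 sh-NAT10 peaks, on SLC3A2 and FTH1, and 1 sh-NC peak, on FTH1 (5.41% and 3.33%), beside 7.78% and 6.04% of peaks in 1 protein-coding gene. Apart from FTH1, no peak lay on the strand opposite to its gene, where 2.46% of sh-NAT10 and 2.48% of sh-NC peaks in 1 protein-coding gene did. None of the peaks reached the 14 windows around annotated gene starts that RefSeq gives for 8 of the genes.

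**Figure D4:**
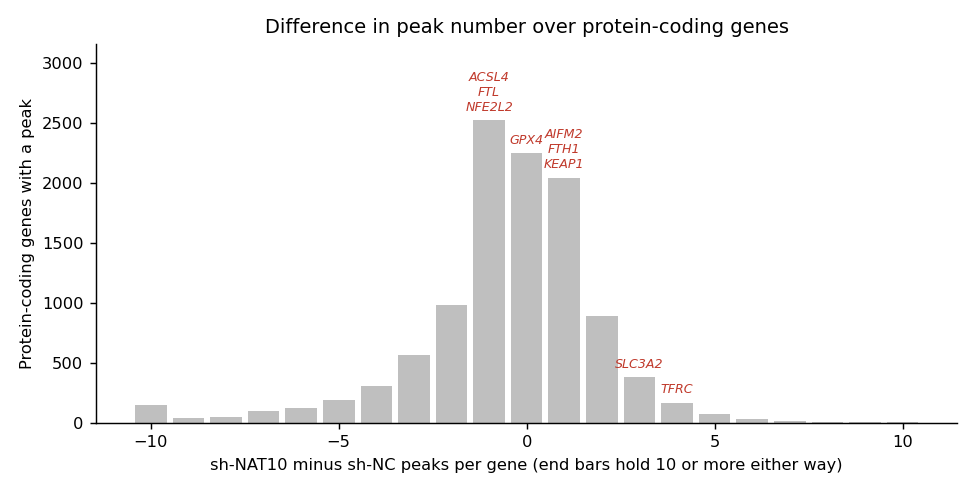
Number of protein-coding genes with a peak (vertical axis) by the difference in peak number, sh-NAT10 minus sh-NC, with the 9 genes of the set that have a peak named above their bar. SLC3A2 and TFRC lie at 3 and 4, where 381 and 169 genes lie, and the other 7 lie at -1, 0 or 1.

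The wider pathway was described with 6 lists holding 91 other genes, of which 68 had a peak, beside 10915 of the 20056 protein-coding genes. More sh-NAT10 than sh-NC peaks were found on 27 of the 68 and fewer on 25, beside 33.3% and 46.1% of protein-coding genes with a peak, and the total was 214 sh-NAT10 and 215 sh-NC peaks. A sh-NC peak without a sh-NAT10 peak was found on 9 of the 59 genes with a sh-NC peak, beside 26.3%. With both lists cut to the length of the shorter, 35 of 68 had more sh-NAT10 peaks and 21 had fewer, beside 44.8% and 36.8%. With scores of 20 or more, 14 of the 31 genes with such a peak had more sh-NAT10 peaks and 9 had fewer, beside 40.8% and 38.3%.

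Among 14 genes of cystine and glutathione metabolism, 9 had peaks, all of them in both lists. Of all protein-coding genes with a peak, 36.2% had peaks in 1 list only. The 9 genes included 4 with more sh-NAT10 peaks and 4 with fewer, beside 33.3% and 46.1% of protein-coding genes with a peak. SLC1A5, a glutamine importer, had 8 sh-NAT10 and 9 sh-NC peaks. GCLC, the catalytic subunit of the rate-limiting enzyme of glutathione synthesis, had 6 and 2, or 3 and 2 when peaks that reach another gene are left out. PGD, an NADPH-producing enzyme of the pentose phosphate pathway, had 4 and 7, and glutathione synthetase (GSS) had 4 and 3. Glutathione reductase (GSR) had 3 and 4, and the amino acid transporter SLC38A1 had 4 and 2.

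Of 17 genes of lipid peroxide repair, 12 had peaks. These included 5 with more sh-NAT10 peaks and 4 with fewer, beside 33.3% and 46.1% of protein-coding genes with a peak. PRDX6, a peroxiredoxin that reduces phospholipid peroxides, had 7 sh-NAT10 and 4 sh-NC peaks, with highest scores of 135.3 and 85.0. Leaving out peaks that reach another gene, it had 6 and 3. VKORC1L1, which reduces vitamin K, had 1 and 6, and MBOAT2, a lysophospholipid acyltransferase, had 1 and 3. The quinone reductase NQO1 had 2 and 1. Thioredoxin reductase TXNRD1 had 8 and 7, or 3 and 2 when peaks that reach another gene are left out. An infinite score was listed for TXNRD1 in both arms.

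Of 19 genes that make or oxidise the lipid substrate, 15 had peaks. More sh-NAT10 peaks were found on 7 and fewer on 3, beside 33.3% and 46.1% of protein-coding genes with a peak. ACSL3, which activates monounsaturated fatty acids, had 5 sh-NAT10 and 8 sh-NC peaks. Leaving out peaks that reach another gene, it had 3 and 8. Its highest scores over all its peaks were 66.2 and 20.2. SAT1, the polyamine acetyltransferase, had 6 and 2, with highest scores of 62.5 and 12.7. The desaturase SCD had 6 and 4, with highest scores of 14.3 and 30.3. The desaturase FADS2 had 7 and 4, or 4 and 2 when peaks that reach another gene are left out. Its highest scores were 67.2 and 36.5, and the overlapping gene FADS1 had the same highest sh-NAT10 score. The elongase ELOVL5 had 1 and 2. These highest scores describe each list alone and were not compared between the lists, since a common scale is not known. PRKCB, a protein kinase C, had 0 sh-NAT10 and 7 sh-NC peaks, or 0 and 6 when peaks that reach another gene are left out.

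Of 15 iron uptake and export genes 10 had peaks, 2 in both lists and 8 in 1 list only, beside 36.2% in 1 list only among protein-coding genes with a peak. The 8 comprised 3 in the sh-NAT10 list only (SLC40A1, SLC11A2 and SLC46A1) and 5 in the sh-NC list only (TF, CP, SLC39A14, SLC25A37 and SLC25A28). All peaks on SLC46A1 (3 and 0), TF (0 and 1) and CP (0 and 1) reach another gene. Leaving such peaks out, 7 genes of the list had a peak, 2 of them in both lists, 2 in the sh-NAT10 list only and 3 in the sh-NC list only. Counted in that way, 39.6% of the 8704 protein-coding genes with a peak had peaks in 1 list only. SLC40A1, the iron exporter ferroportin, had 1 sh-NAT10 peak with a score of 43.1 and 0 sh-NC peaks. SLC11A2, the importer DMT1, had 1 and 0, and the zinc and iron importer SLC39A14 and the mitochondrial importer SLC25A37 had 0 and 1 each. LRP1, a receptor that takes up haem bound to hemopexin, had 7 and 6 peaks, or 4 and 6 when peaks that reach another gene are left out.

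Of 16 genes of iron storage and its control, 15 had peaks, 13 of them in both lists. Among all protein-coding genes with a peak, 36.2% had peaks in 1 list only. The 15 genes included 5 with more sh-NAT10 peaks and 4 with fewer, beside 33.3% and 46.1% of protein-coding genes with a peak. The iron regulatory proteins, which bind ferritin and TFRC messages, differed in direction. ACO1 (IRP1) had 6 sh-NAT10 and 2 sh-NC peaks, with highest scores of 46.1 and 14.9, and IREB2 (IRP2) had 0 and 2, with a highest score of 13.7. HERC2, a ubiquitin ligase that acts on the ferritin receptor NCOA4, had 13 and 9, and FBXL5, which degrades IRP2, had 1 and 2. Leaving out peaks that reach another gene, HERC2 had 9 and 6 and FBXL5 had 0 and 2. The iron chaperone PCBP1 had 7 and 8, or 0 and 3 when peaks that reach another gene are left out, and the heat shock protein HSPB1 had 4 and 3.

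Of 10 other genes of the NRF2 axis, 7 had peaks, 24 in the sh-NAT10 list and 33 in the sh-NC list. Counted gene by gene over all protein-coding genes, the totals were 26532 and 32483. Of the 7 genes, 2 had more sh-NAT10 peaks and 4 had fewer, beside 33.3% and 46.1% of protein-coding genes with a peak. CUL3, the scaffold of the ligase in which KEAP1 works, had 5 sh-NAT10 and 9 sh-NC peaks, with highest scores of 39.2 and 22.6. NFE2L1, a relative of NRF2, had 5 and 8, with highest scores of 20.3 and 23.2. CUL1, the scaffold of another ligase that acts on NRF2, had 0 and 3. RBX1, the RING subunit of both ligases, had 1 and 0. SQSTM1 (p62), which sequesters KEAP1, had 11 and 10, or 8 and 7 when peaks that reach another gene are left out. Its highest scores were 15.8 and 39.7.

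**Figure D5:**
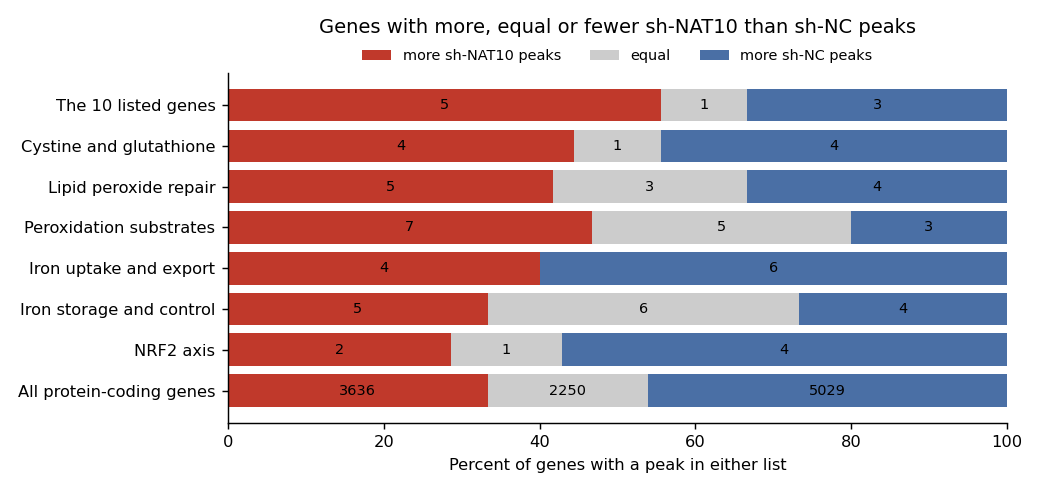
Percentage of genes with a peak (horizontal axis) that had more sh-NAT10 than sh-NC peaks (red), equal numbers (grey) or more sh-NC peaks (blue), for the 10 genes, for the 6 lists without them and for all protein-coding genes, with the number of genes printed in each segment. The iron uptake and export list has no gene with equal numbers.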

How the data were processed

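The tools fastp 0.20.1 and Bowtie2 2.4.1 and the genome build hg38 are named in the submitters' processing notes. The peak calling from immunoprecipitate and input, and whether replicates were pooled first, are steps not given in the sources used here. Per arm the authors deposited 1 interval list of 12 columns, whose score has no stated scale. The list named for the control titles was taken as sh-NC and the remaining one as sh-NAT10. The 10 genes, the pathway lists and the rules for overlap were chosen with earlier results of these data known. Gene spans came from RefSeq (GRCh38.p14) and strands from its table of gene starts. All 101 pathway symbols matched, 1 of them through an older symbol. In each list the text names, beyond the 10 genes, up to 3 genes with the largest difference in peak number each way and the gene with most peaks, leaving out peaks that reach another gene. Of these, 1 gene is not reported here. The genes listed as present in 1 arm only among iron transporters were named after their values were seen. Counts were made in Python 3.11.15 (pandas 2.3.3, NumPy 2.4.6), intervals came from SciPy 1.17.1, and plots were drawn with matplotlib 3.10.9. On simulated data 818 peaks placed in 200 genes were all assigned to their gene (100%). Sequences under the peaks were not used here. No test between arms was made, since the lists hold no replicates.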

Additional observations from a re-analysis of the deposited data

How the results depend on the processing

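The number of peaks on the 10 genes, 37 sh-NAT10 and 30 sh-NC, depends on the score threshold. With scores of 20 or more the numbers were 9 and 10, a difference of -1 in place of 7. Genes with a sh-NAT10 peak then numbered 4 in place of 8, those with a sh-NC peak only 3 in place of 1, and those with more sh-NAT10 peaks 1 in place of 5, so that genes with more minus genes with fewer came to -2 in place of 2, and shared peaks to 100% in both lists. With scores of 15 or more, a threshold added after seeing the data, the numbers were 19 and 16, a difference of 3, and 78.9% of the sh-NAT10 peaks were shared. With both lists cut to the length of the shorter by score, the difference in peaks was 13 and that in genes 4, while over all protein-coding genes with a peak the shares also turned, to 44.8% with more and 36.8% with fewer sh-NAT10 peaks, in place of 33.3% and 46.1%. The same setting, added later for the other pathway genes, gave 35 with more and 21 with fewer. A gene with a sh-NAT10 peak and no sh-NC peak, 0 of 8 as reported, became 1 of 8 for peaks in no further gene (FTH1), for scores of 15 or more (KEAP1) and for lists of equal length (KEAP1). Over all protein-coding genes with a sh-NAT10 peak the shares at these settings were 20.0%, 37.3% and 24.2%, in place of 17.4%. Among the other pathway genes, scores of 20 or more, also added later, gave 14 with more sh-NAT10 peaks in place of 27 and 9 with fewer in place of 25. The cause of these shifts was not tested, beyond fewer peaks being counted. Restricting the count to peaks in no further gene, only those on the gene strand, only those at least 50% inside the gene or only those up to 1000 bp kept the difference at 7 and the gene counts at 5 with more and 3 with fewer. The 50% rule removed no peak, so it could not move these values. The strand rule removed only plus-strand peaks of FTH1, equally many in each list, and the strand of FTH1 was itself taken from its peaks. With sharing defined as overlap of at least 50% of both peaks, the shares were 54.1% in the sh-NAT10 and 66.7% in the sh-NC list. With sharing on either strand they stayed at 59.5% and 73.3%. All lay inside their intervals, which are wide, so this says little about dependence on the definition. No paired analysis was possible because each arm has 1 list without replicates, and for the same reason no replicate could be left out.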
